A study of Homo sapiens with 6 samples.

Results

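The genes of the PAR, Crumbs and Scribble polarity modules were examined in control and WDR5-silenced breast cancer cells. The group held 10 genes, chosen by name as rows of the deposited count table: PARD3, PARD6A, PARD6B, PARD6G, PRKCI and PRKCZ of the PAR module, CRB3 of the Crumbs module, and LLGL2, SCRIB and DLG1 of the Scribble module. All 10 were found among the 26334 genes of the table, and all 10 passed the filter on low counts. The series consists of 6 poly-A selected RNA-seq libraries of MCF10DCIS.com, a basal-like human breast cancer line derived from MCF10A mammary epithelial cells that forms comedo-type ductal carcinoma in situ in mice. In the control group (shLuc, n = 3) the cells carried the lentiviral vector pRSI-U6-shLuc-UbiC-TagRFP-2A-Puro, with a hairpin against luciferase. In the silenced group (shWDR5, n = 3) they carried the same vector with hairpins against WDR5, which the study describes as a pool of 2. Both groups were selected with 3 µg/ml puromycin and grown in DMEM/F12 with 5% horse serum and 1.05 mM calcium chloride. No time after infection is given in the labels. The replicates are not said to be separate infections, so p-values measure the spread between these libraries, which may be technical. The model is limited to the cells of a single line, and no library of a single WDR5 hairpin was analysed here.

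Epithelial cells keep an apical surface apart from a basolateral one through 3 protein modules that restrain each other. The PAR complex, made of the scaffold PAR3, the adaptor PAR6 and the atypical protein kinase C (aPKC), together with the Crumbs complex of CRB, PALS1 and PATJ, marks the apical side and the level of the tight junction. The Scribble module of SCRIB, DLG and LGL holds the basolateral side, and aPKC phosphorylates LGL to keep it out of the apical domain. In epithelial-to-mesenchymal transition (EMT) the polarity proteins are displaced or repressed, and PAR6 is also a substrate of the type II TGFβ receptor, which links it to the loss of tight junctions.

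The silenced gene checked the labels. WDR5 was at 52.6, 48.5 and 51.3 CPM (counts scaled to a common library size) in the shLuc libraries and at 23.4, 24.4 and 20.8 CPM in the shWDR5 libraries, a log2 fold change of -1.15 ± 0.073 (SE; adjusted p = 1.86e-07). The libraries held 38218108 to 57640167 counts in genes. Of 16117 genes tested with edgeR, 9103 (56.5%) passed an adjusted p of 0.05, 4292 (26.6%) higher and 4811 (29.9%) lower in shWDR5 cells. Epithelial and basal markers were abundant, with KRT5 at 820 CPM and EPCAM at 283 CPM in shLuc cells. The basal markers KRT5 (0.91 ± 0.060, to 1546 CPM), KRT14 (1.29 ± 0.088), KRT17 (0.94 ± 0.066) and TP63 (0.42 ± 0.083) rose in shWDR5 cells, EPCAM (-0.33 ± 0.073) and EGFR (-0.27 ± 0.056) fell, and the luminal keratins KRT8 (0.037, adjusted p = 0.613) and KRT18 (-0.12, adjusted p = 0.111) did not pass. The part of these differences in the polarity results was not tested. The 11 markers of blood, endothelial, fibroblast and fat cells summed to 41.2 to 44.6 CPM in shLuc and 31.4 to 35.9 CPM in shWDR5 libraries, mostly COL1A1 and CD68. CD3E and HBB were at 0 in all 6 libraries. Of the 7 of these markers that were tested, 2 passed, both lower in shWDR5 cells, and their part in the results was not tested.

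Of the 10 polarity genes, 4 passed the adjusted p of 0.05, against 56.5% of all genes tested. This count depended on GC content: with a correction for it, added after the data were seen, 8 passed, against 63.5% of all genes tested. PARD6A and PARD3 fell in shWDR5 cells, whereas PARD6G and PRKCZ rose. The other 6 genes, PARD6B, PRKCI, CRB3, LLGL2, SCRIB and DLG1, did not pass. The CPM values of the groups did not overlap for the same 4 genes, against 62.3% of all genes tested. The median log2 fold change of the 10 genes was -0.017, beside -0.011 for all genes tested. With the further limits that the study used, an absolute log2 fold change of 0.6 and a mean above 0.5 RPKM (CPM per kilobase of exon), 2 genes passed, against 18.3% of all genes tested. They were PARD6G, higher in shWDR5 cells (7.9% of all genes), and PARD6A, lower (10.4% of all genes). In bulk RNA a change in the level per cell and a change in the share of cells that express a gene cannot be told apart.

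**Figure D1:**
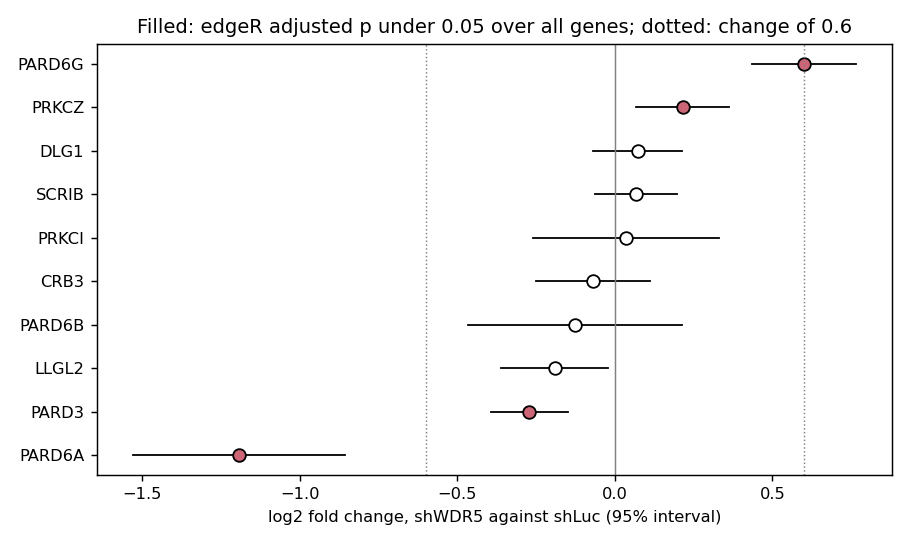
Log2 fold change of each polarity gene in shWDR5 against shLuc cells (x axis), with its 95% confidence interval from the edgeR fit, n = 3 libraries a group. Filled points passed an adjusted p of 0.05 over all genes and dotted lines mark a change of 0.6; PARD6A (-1.19) and PARD6G (0.60) lie farthest from 0, on opposite sides.

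The levels per transcript length put the members in an order that was almost the same in both groups. In shLuc cells PRKCI (27.6 RPKM), SCRIB (26.7 RPKM), DLG1 (25.5 RPKM) and LLGL2 (25.5 RPKM) were the most abundant, and each overlapped its neighbour in the order across the 3 libraries. CRB3 (14.6 RPKM), PARD3 (10.7 RPKM) and PRKCZ (6.04 RPKM) followed, each apart from the next. PARD6B (3.50 RPKM) and PARD6G (3.36 RPKM) overlapped, and PARD6A (1.68 RPKM) was the lowest. In shWDR5 cells PARD6G (5.09 RPKM) stood above PARD6B (3.21 RPKM) with no overlap between their libraries, and PARD6A (0.739 RPKM) remained last.

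**Figure D2:**
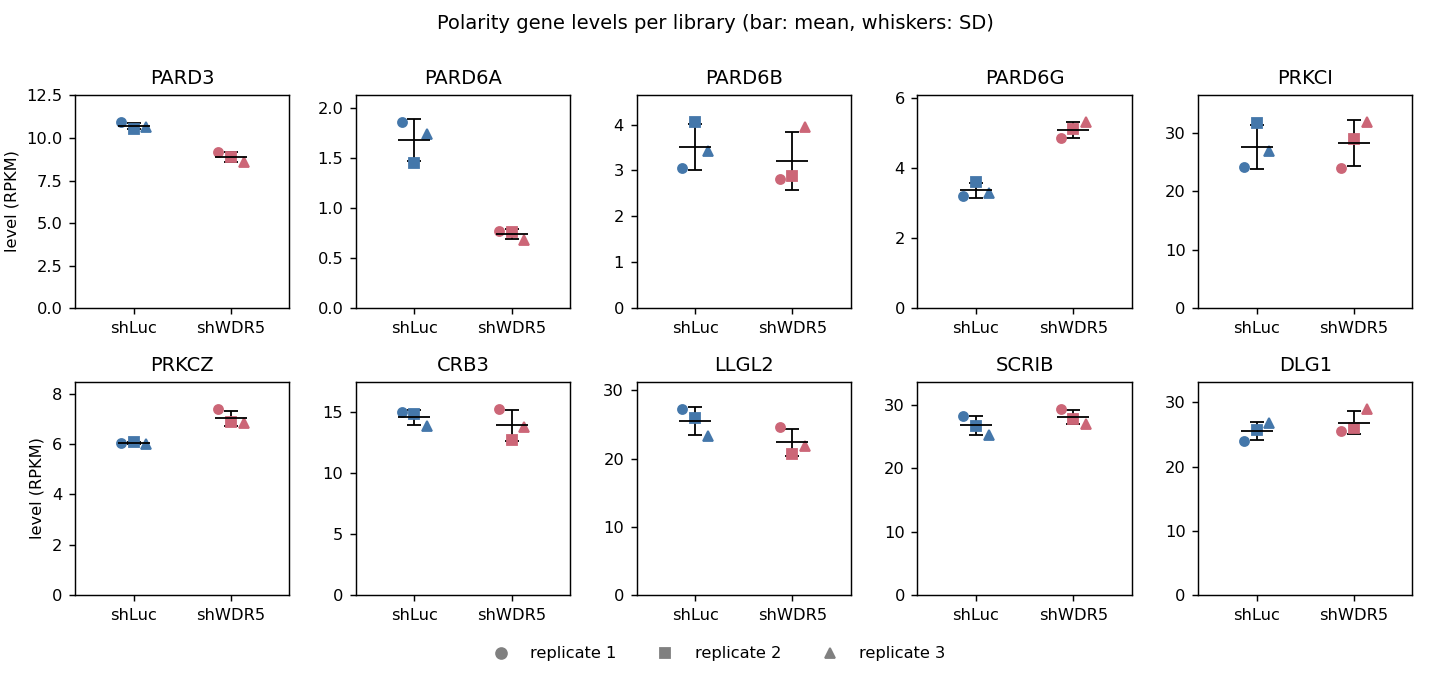
Level of each polarity gene in RPKM (y axis, from 0) in the 3 shLuc and the 3 shWDR5 libraries, with the mean (bar) and SD (whiskers); marker shapes give the replicate number. The groups are apart for PARD6A, PARD6G, PARD3 and PRKCZ and overlap for the other 6 genes.

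PAR6 is the adaptor that binds CDC42-GTP and hands aPKC its substrates, and the 3 PARD6 genes encode paralogues of it. They responded differently to WDR5 silencing. The windows directly upstream of the starts of the 2 paralogues that passed the test are shown because they moved in opposite directions. Both are from RefSeq (GRCh38.p14), written 5′ to 3′ along the gene, and end at the base before the start. Neither holds CAGGTG or CACCTG, the E-box letters that SNAI and ZEB repressors recognise, and these are present in 17.5% of 35116 windows of 250 bases upstream of RefSeq starts. The PARD6A window has 27 CG dinucleotides and 66.8% GC, and the PARD6G window has 37 CG dinucleotides and 80.4% GC, beside a median of 11 CG dinucleotides over all windows.
PARD6A, chr16:67660710-67660959, plus strand: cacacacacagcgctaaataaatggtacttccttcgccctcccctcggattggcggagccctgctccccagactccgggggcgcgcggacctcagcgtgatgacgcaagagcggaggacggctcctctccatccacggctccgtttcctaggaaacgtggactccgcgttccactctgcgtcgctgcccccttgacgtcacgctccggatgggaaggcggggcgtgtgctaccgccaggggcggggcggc
PARD6G, chr18:80247515-80247764, minus strand: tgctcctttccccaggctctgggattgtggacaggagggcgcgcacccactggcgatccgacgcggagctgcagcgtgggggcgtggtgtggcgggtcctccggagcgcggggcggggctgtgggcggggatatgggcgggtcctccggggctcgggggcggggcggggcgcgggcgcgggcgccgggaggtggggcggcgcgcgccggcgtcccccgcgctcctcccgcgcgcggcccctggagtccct

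PARD6A (hg19 chr16:67694851-67696681, plus strand, 1263 exonic bases) gave 116, 71 and 89 counts in the shLuc libraries and 45, 55 and 39 counts in the shWDR5 libraries. This corresponded to 1.86, 1.45 and 1.75 RPKM in shLuc and 0.769, 0.766 and 0.681 RPKM in shWDR5 cells. All shWDR5 libraries lay below all shLuc libraries. The log2 fold change was -1.19 ± 0.15 (SE; adjusted p = 4.23e-05), a level 0.438 times that of the control (95% interval 0.347 to 0.553). PARD6A had the fewest counts of the 10 genes, and its estimate had the largest standard error among them. The study lists PARD6A among TGFβ1 targets that were lower in most of its WDR5-silenced patient-derived xenografts, which were not analysed here.

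PARD6G (hg19 chr18:77915117-78005397, minus strand) was at 3.19, 3.61 and 3.30 RPKM in shLuc cells and at 4.86, 5.12 and 5.30 RPKM in shWDR5 cells. Here all shWDR5 libraries lay above the controls. The log2 fold change was 0.60 ± 0.076 (SE; adjusted p = 3.66e-05), or 1.52-fold (95% interval 1.35 to 1.70), which is at the edge of the limit of 0.6. The antisense gene PARD6G-AS1, which shares no exonic base with PARD6G in the annotation of the table, had 24 to 45 counts in shLuc and 52 to 59 counts in shWDR5 libraries (adjusted p = 0.0466).

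PARD6B (hg19 chr20:49348081-49370278, plus strand) was at 3.05, 4.05 and 3.42 RPKM in shLuc cells and at 2.82, 2.87 and 3.94 RPKM in shWDR5 cells. The third shWDR5 library reached the range of the controls, and the groups overlapped (log2 fold change -0.13, 95% interval -0.47 to 0.21, adjusted p = 0.507). Without shWDR5 replicate 3 the log2 fold change was -0.30 (adjusted p = 0.0493). With the GC correction it was -0.032 (adjusted p = 0.828), and -0.039 (adjusted p = 0.775) with the replicate block as well.

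The shares of PARD6A and PARD6G lay apart between the groups, while the share of PARD6B and the sum of the 3 genes overlapped. The summed level of the 3 genes was 8.55 ± 0.508 RPKM (SD, n = 3) in shLuc and 9.04 ± 0.779 RPKM (SD, n = 3) in shWDR5 cells. PARD6A made up 19.8% ± 3.58 (SD) of that sum in shLuc cells and 8.24% ± 1.21 (SD) in shWDR5 cells. PARD6G made up 39.3% ± 0.323 (SD) and 56.5% ± 2.65 (SD), respectively. The share of PARD6B was 40.8% ± 3.41 (SD) and 35.3% ± 3.82 (SD). The ratio of PARD6G to PARD6A was 1.72, 2.49 and 1.89 in the shLuc libraries and 6.32, 6.68 and 7.79 in the shWDR5 libraries. These shares were described without a test, since they follow from the changes given above.

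**Figure D3:**
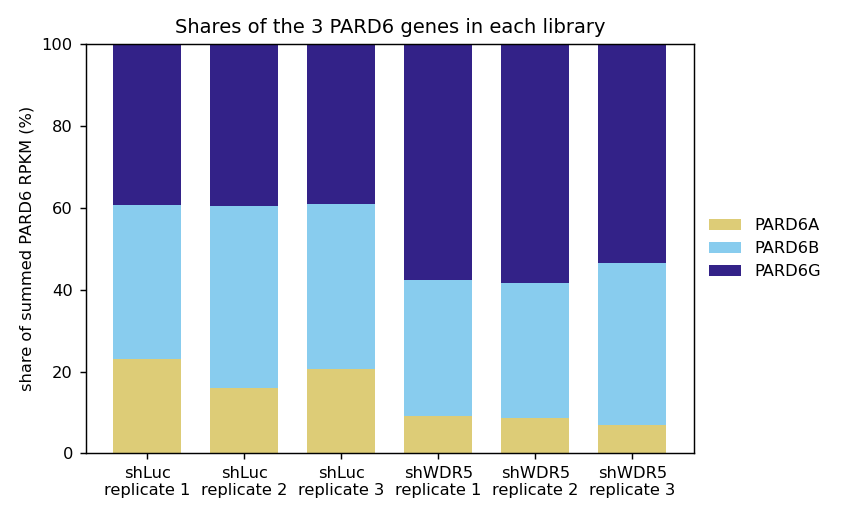
Share of PARD6A, PARD6B and PARD6G in their summed RPKM (y axis, %) in each of the 6 libraries (bars). PARD6G takes 39.0 to 39.6% in the shLuc libraries and 53.5 to 58.4% in the shWDR5 libraries.

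PAR3 is the scaffold that docks the complex at cell junctions. PARD3 (hg19 chr10:34398488-35104253, minus strand) was at 10.9, 10.5 and 10.7 RPKM in shLuc cells and at 9.15, 8.87 and 8.60 RPKM in shWDR5 cells. The shWDR5 libraries were all lower, and both groups were tight. The log2 fold change was -0.27 ± 0.056 (SE; adjusted p = 0.00135), or 0.829-fold (95% interval 0.762 to 0.902). Its paralogue PARD3B, at 0.806 RPKM in shLuc cells, did not pass (log2 fold change 0.15, adjusted p = 0.175), and PARD3 made up 93.0% ± 0.410 (SD) and 90.9% ± 0.345 (SD) of the summed level of the pair in shLuc and shWDR5 cells.

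The atypical kinases phosphorylate PAR3, LGL and Crumbs. PRKCI (aPKCι; hg19 chr3:169940220-170023770, plus strand) was at 24.2, 31.6 and 26.9 RPKM in shLuc cells and at 23.9, 29.01 and 31.8 RPKM in shWDR5 cells. The first replicate was the lowest of both groups, and the groups overlapped throughout (log2 fold change 0.036, 95% interval -0.26 to 0.33, adjusted p = 0.833). Its sign turned with the scaling by library totals (-0.020) and when shLuc replicate 1 (-0.034) or shWDR5 replicate 3 (-0.058) was left out. PRKCI passed only with the GC correction and the replicate block together (0.14, adjusted p = 0.0420).

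PRKCZ (aPKCζ; hg19 chr1:1981909-2116834, plus strand) was at 6.05, 6.10 and 5.99 RPKM in shLuc cells and at 7.38, 6.86 and 6.83 RPKM in shWDR5 cells. All shWDR5 libraries exceeded the controls by a small margin (log2 fold change 0.22 ± 0.067, SE; 1.16-fold, 95% interval 1.05 to 1.29; adjusted p = 0.0162). It was lost without shWDR5 replicate 1 (adjusted p = 0.0548) and with the scaling by library totals (0.16, adjusted p = 0.0536). Of the exonic bases of PRKCZ, 590 (19.2%) are also exonic in FAAP20 on the opposite strand, and FAAP20 rose by a log2 fold change of 0.46 ± 0.078 (SE; adjusted p = 0.000345). The strand setting of the counting is not given in the sources used here, so reads of the shared stretch may not be separable. Their part in the change of PRKCZ was not tested. PRKCI remained the main aPKC transcript, with 81.9% ± 1.92 (SD) of the summed level in shLuc and 79.9% ± 3.06 (SD) in shWDR5 cells.

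CRB3 is the Crumbs family member of most epithelia and a textbook target of EMT repressors, and the 250 bases upstream of its start are shown for the E-boxes in them. The window (RefSeq, GRCh38.p14, 5′ to 3′ along the gene) holds 5 matches to CAGGTG or CACCTG, set in capitals. These letters are each other's reverse complement, so both strands were searched. Of all 35116 windows, 26 (0.0740%) hold 5 or more. Among the 10 polarity genes 6 had at least 1 start in the RefSeq table, and 3 of these (CRB3, PRKCZ and DLG1) had a match upstream of at least 1 start. Genes with more starts have more windows to match. Counted by start, 4 of 13 had a match, beside 17.5% of all windows. PARD3, PARD6B, LLGL2 and SCRIB had no listed start, so no window of theirs was searched. PARD6A, PARD6G and PRKCI were searched and had no match.
CRB3, chr19:6464021-6464270, plus strand: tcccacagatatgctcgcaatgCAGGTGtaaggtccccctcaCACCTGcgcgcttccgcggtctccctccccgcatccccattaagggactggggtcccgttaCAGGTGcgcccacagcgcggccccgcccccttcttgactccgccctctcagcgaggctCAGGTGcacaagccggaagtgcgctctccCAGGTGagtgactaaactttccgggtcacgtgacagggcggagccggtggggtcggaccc
PRKCZ, chr1:2050161-2050410, plus strand: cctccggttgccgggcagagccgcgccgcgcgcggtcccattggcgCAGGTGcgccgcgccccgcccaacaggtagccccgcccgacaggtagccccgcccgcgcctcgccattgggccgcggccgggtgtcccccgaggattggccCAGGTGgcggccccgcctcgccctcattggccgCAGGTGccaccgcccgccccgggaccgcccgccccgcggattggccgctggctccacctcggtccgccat
The PRKCZ window, upstream of 1 of its 4 listed starts, holds 3 matches, and 0.464% of all windows hold 3 or more. A match of letters is a description and not a site of binding.

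CRB3 (hg19 chr19:6464260-6467230, plus strand) was at 15.0, 14.8 and 13.9 RPKM in shLuc cells and at 15.2, 12.7 and 13.8 RPKM in shWDR5 cells. The groups overlapped (log2 fold change -0.069 ± 0.082, SE; 0.953-fold, 95% interval 0.842 to 1.08; adjusted p = 0.503). CRB1 and CRB2 were below the count filter, and CRB3 made up at least 99.7% of the summed CRB level in every library. DENND1C on the opposite strand, with 16 exonic bases in common with CRB3, fell (log2 fold change -0.57, adjusted p = 0.000108).

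Of the 3 Scribble members none passed in the main fit, against 56.5% of all genes tested. With the GC correction all 3 passed, against 63.5% of all genes tested. LLGL2, a mammalian LGL and substrate of aPKC (hg19 chr17:73521783-73571290, plus strand), was at 27.2, 25.98 and 23.3 RPKM in shLuc cells and at 24.6, 20.7 and 21.8 RPKM in shWDR5 cells. The highest shWDR5 library overlapped the lowest control. The log2 fold change was -0.19 ± 0.078 (SE; 95% interval -0.36 to -0.020), with an unadjusted p of 0.0316 and an adjusted p of 0.0550. It was lower in shWDR5 cells in all 15 alternative fits, from -0.31 to -0.13, and passed in 7 of them, including those without shLuc replicate 3 (adjusted p = 0.0198) and without shWDR5 replicate 1 (adjusted p = 0.0112). With the replicate number as a block it was the fifth member to pass, against 64.7% of all genes tested.

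SCRIB, the LAP protein that gives the module its name (hg19 chr8:144873090-144897549, minus strand), was at 28.3, 26.7 and 25.2 RPKM in shLuc cells and at 29.2, 27.8 and 27.0 RPKM in shWDR5 cells. The groups overlapped (log2 fold change 0.068, 95% interval -0.064 to 0.20, adjusted p = 0.364). DLG1, a membrane-associated guanylate kinase scaffold (hg19 chr3:196769431-197026143, minus strand), was at 24.02, 25.7 and 26.8 RPKM in shLuc cells and at 25.5, 26.1 and 28.9 RPKM in shWDR5 cells. Its groups overlapped as well (log2 fold change 0.072, 95% interval -0.070 to 0.21, adjusted p = 0.369). Both calls changed with the GC correction, whose values are given with the GC content of the members.

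Within a group, several members deviated together from library to library, and these deviations went with the base composition of their transcripts. Over 14906 genes with a GC value, the deviation of a library from the mean of its group correlated with GC content at r = 0.535 in shLuc replicate 1 and r = 0.535 in shWDR5 replicate 1, and at -0.252 to -0.392 in the other 4 libraries. These correlations are across genes, which are not independent replicates. The deviations of a gene cancel within a group, so the negative values follow in part from the positive value of replicate 1. Of the members, 8 lie towards the ends of the range and 2, PARD3 (50.3% GC) and PARD6G (51.4%), near its middle. DLG1 (38.7% GC), PRKCI (39.1%) and PARD6B (40.02%) are GC-poor, PRKCZ (59.6%), CRB3 (60.9%), PARD6A (62.7%), LLGL2 (63.2%) and SCRIB (66.5%) are GC-rich, and the median of all genes was 48.5%. In the first replicate of both groups the GC-poor members were below and the GC-rich members above the mean of the group. When the GC trend of each library was taken out, the correction that gave 8 calls, SCRIB, DLG1, LLGL2 and CRB3 joined the genes that passed. With the replicate number as a block as well, 9 passed, against 65.9%, and PRKCI was the one added (0.14 ± 0.053, SE, adjusted p = 0.0420). PARD3, PARD6A, PARD6G and PRKCZ kept their direction and passed. LLGL2 passed at -0.31 ± 0.046 (SE; adjusted p = 9.82e-05), CRB3 at -0.16 ± 0.060 (SE; adjusted p = 0.0402) and DLG1 at 0.18 ± 0.044 (SE; adjusted p = 0.00383). SCRIB turned in direction, to -0.11 ± 0.036 (SE; adjusted p = 0.0196). The correction also takes out any GC trend that differs between the groups (r = 0.123 between fold change and GC content before it), so these small changes depend on the treatment of GC.

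**Figure D4:**
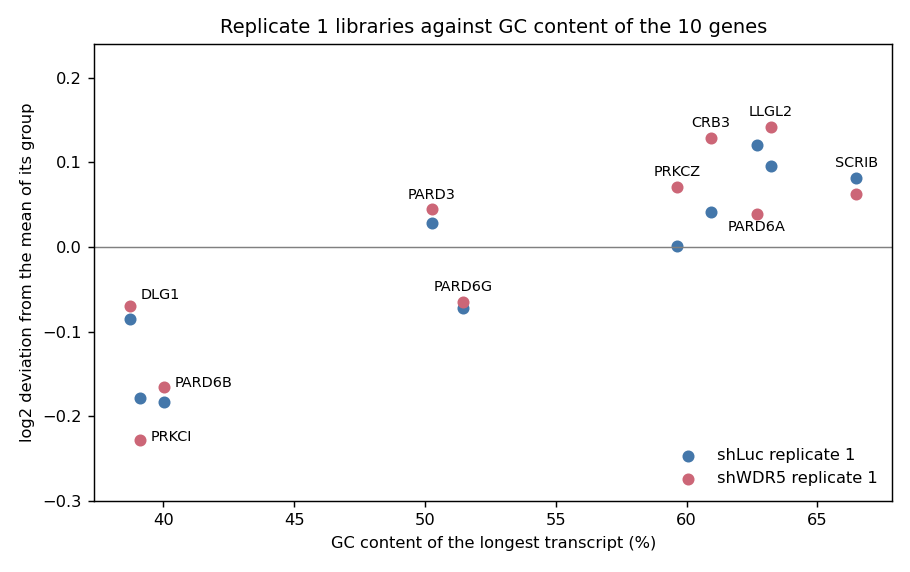
Log2 deviation of the first replicate of each group from the mean of its group (y axis) against the GC content of the longest transcript of each polarity gene (x axis, %), 1 point per gene and group. The GC-poor genes lie below 0 and the 5 most GC-rich genes at or above 0 in both groups.

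Partners of the PAR complex from a list of 24 genes passed in 15 cases, 7 higher and 8 lower (62.5%, against 56.5% of all genes; median log2 fold change 0.12). TIAM1, the RAC exchange factor that binds PAR3, fell from 27.5 ± 2.04 to 9.47 ± 0.890 CPM (SD, n = 3 each), a log2 fold change of -1.54 ± 0.089 (SE; adjusted p = 9.83e-08). AURKA, a mitotic kinase that phosphorylates Par-6 in fly neuroblasts, fell (-0.72 ± 0.063). SQSTM1, the p62 scaffold that binds aPKC, rose (0.71 ± 0.067), as did SFN, the 14-3-3σ protein (0.65 ± 0.077). CDC42, the GTPase that activates PAR6, rose by a smaller margin (0.35 ± 0.053; adjusted p = 0.000152), and so did STK11, the human PAR4 kinase LKB1 (0.33 ± 0.058; adjusted p = 0.000415).

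Among 9 other Crumbs genes 6 were tested, and 4 passed, all lower in shWDR5 cells. They were 66.7% of those tested, against 56.5% of all genes (26.6% higher, 29.9% lower). MPP5, which encodes PALS1, the scaffold that joins Crumbs to PAR6, fell by 0.44 on the log2 scale (SE 0.10; adjusted p = 0.00472). LIN7B, a small PDZ partner of PALS1, fell by 0.98 (SE 0.18; adjusted p = 0.000749), at only 2.00 CPM in shLuc cells. MPP7 (-0.39, adjusted p = 0.0116) and EPB41L5 (-0.25, adjusted p = 0.0479) were near the threshold and were lost in 2 and 9 of the 15 alternative fits, respectively. INADL, the gene of PATJ, did not pass (0.051, adjusted p = 0.463).

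Of 11 other Scribble genes 9 were tested and 8 passed, 2 higher and 6 lower (88.9%, against 56.5% of all genes, of which 26.6% were higher and 29.9% lower; median log2 fold change -0.35, beside -0.011). DLG4 (-0.92 ± 0.086), LRRC1, a LAP protein related to SCRIB (-0.79 ± 0.063), DLG3 (-0.68 ± 0.064) and LLGL1, the paralogue of LLGL2 (-0.37 ± 0.070), fell, each with an adjusted p of at most 0.000806. DLG5, with the largest mean part of the summed DLG level (45.5% in shLuc and 45.1% in shWDR5 cells), fell as well (-0.17 ± 0.054, SE; adjusted p = 0.0160). Within its family DLG1 took a larger part: 36.4% ± 1.94 (SD) of that sum in shLuc and 42.8% ± 2.25 (SD) in shWDR5 cells. The sum itself went from 70.1 ± 0.653 to 62.7 ± 1.20 RPKM (SD, n = 3 each). LLGL2 made up 50.8% ± 0.791 (SD) of the LLGL sum in shLuc and 53.9% ± 0.697 (SD) in shWDR5 cells.

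**Figure D5:**
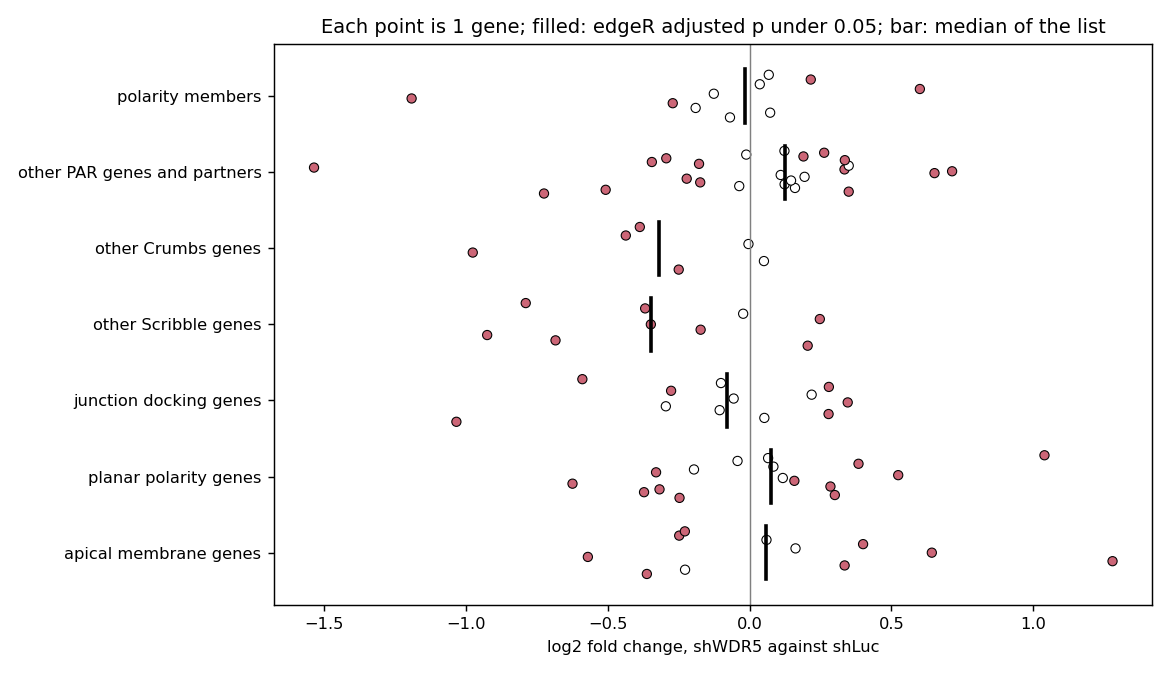
Log2 fold change in shWDR5 against shLuc cells (x axis) of every tested gene of the polarity members and of 6 further lists (rows); filled points passed an edgeR adjusted p of 0.05 and bars give the median of each list. The other Scribble and other Crumbs lists have medians of -0.35 and -0.32, and the members -0.017.

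The junction molecules that dock PAR3 or the tight junction scaffolds passed in 6 of 12 cases, 3 higher and 3 lower, near the 56.5% of all genes (26.6% higher, 29.9% lower), with a median of -0.079. CDH1, the E-cadherin gene, was at 473, 510 and 505 CPM in shLuc cells and at 234, 245 and 247 CPM in shWDR5 cells (log2 fold change -1.03 ± 0.055, SE; adjusted p = 5.19e-08). For total CDH1 protein the study reported no significant difference between shLuc and shWDR5 cells. The transcript of the tight junction scaffold TJP3 fell as well (-0.59 ± 0.078). In contrast TJP1, encoding ZO-1 (0.28 ± 0.057), and PVRL1, encoding nectin-1 (0.35 ± 0.060), rose.

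On the route from TGFβ to PAR6 3 of 5 genes passed, 1 higher and 2 lower, near the 56.5% of all genes. The ligand gene TGFB1 fell (-0.70 ± 0.081, SE; adjusted p = 1.77e-05), as did TGFBR2, the receptor kinase that phosphorylates PAR6 (-0.27 ± 0.056; adjusted p = 0.00164). TGFBR1 rose (0.60 ± 0.085; adjusted p = 8.41e-05). SMURF1, the ubiquitin ligase recruited by phosphorylated PAR6, and its substrate RHOA did not pass (0.11, adjusted p = 0.0960, and 0.096, adjusted p = 0.116).

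The EMT repressors known to act on polarity genes did not share a direction, and 5 of 6 passed, 3 higher and 2 lower, against 56.5% of all genes (26.6% higher, 29.9% lower). SNAI2 rose from 17.3 ± 0.906 to 41.9 ± 4.08 CPM (SD, n = 3 each; log2 fold change 1.28 ± 0.082, SE; adjusted p = 1.97e-07). ZEB1 rose at a low level (1.21 to 2.06 CPM; adjusted p = 0.00171). ZEB2, counted among the 3 higher, had 2, 3 and 3 counts in the shLuc and 34, 22 and 31 counts in the shWDR5 libraries. The ratio after scaling was 9.41 (95% exact interval 4.57 to 22.5, for counting error only). It cleared the filter on low counts only through the shWDR5 libraries, where it was high. Its call (edgeR adjusted p = 7.82e-05) is therefore no independent support for a rise. TWIST1 (-0.34 ± 0.091; adjusted p = 0.00749) and TWIST2 (-0.57 ± 0.14; adjusted p = 0.00535) fell. SNAI1, at 1.14 CPM in shLuc and 0.885 CPM in shWDR5 cells, did not pass (adjusted p = 0.0977). These are RNA levels, and the study reported reduced SNAI1 and SNAI2 protein in shWDR5 cells of this line. By RNA-seq it reported SNAI2, ZEB1, ZEB2 and TWIST1 as lower in most of its WDR5-silenced patient-derived xenografts, which were not analysed here. It also reported less SNAI2 in this line under a drug that inhibits WDR5.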

How the data were processed

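RNA-seq was performed on 3 shLuc and 3 shWDR5 libraries of MCF10DCIS.com cells. Per the labels, poly-A RNA was prepared with the TruSeq RNA kit and sequenced on an Illumina HiSeq. The authors aligned reads with TopHat2 2.1.0 to hg19 (GRCh37) and deposited raw featureCounts counts per gene, with exon lengths. The strand setting and count filters are not given in the sources used here. The table of the authors' own edgeR 3.2.2 comparison (fold changes and p-values) was not used.

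Here the counts of all 6 libraries were fitted with edgeR 4.0.16 (TMM, filterByExpr, robust glmQLFit and glmQLFTest, group as the only term), with Benjamini-Hochberg adjustment over 16117 genes and a threshold of 0.05; 10217 genes were not tested. Standard errors are the coefficient divided by the root of F. CPM and RPKM are per TMM-scaled library. The main edgeR, DESeq2, limma-voom and GC-corrected fits were run on simulated counts with known changes. That simulation held no GC trend and no replicate effect, and the other fits were not simulated. Libraries of a group differed beyond sampling noise (chi-square per degree of freedom 7.11 to 18.2). Alternatives were DESeq2 1.42.0, limma-voom 3.58.1, other scalings, no filter, the replicate number as a block, leaving out each library and, added after the data were seen, GC offsets from the longest GENCODE v29 transcripts.

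The members and gene lists were chosen with earlier results of these data known. All 10 members were named. Of the TGFβ route and EMT repressor lists every gene was named, and of each other polarity list the up to 4 called genes with the largest change. CDC42, STK11, PARD3B, INADL and DLG5 were named after their values were seen. The replicate numbers were not taken as pairs in the main fit, although the correlations of the libraries with GC content were alike by number.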

Additional observations from a re-analysis of the deposited data

How the results depend on the processing

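The directions of PARD3, PARD6A, PARD6G, PRKCZ, CRB3, LLGL2, DLG1 and PARD6B held in all 15 alternative fits; PARD3, PARD6A and PARD6G also passed in each. PRKCZ was lost with library totals (adjusted p = 0.0536) and without shWDR5 replicate 1. The number of members that passed was 4 in the main fit (against 56.5% of all genes tested) and in the fits not named next. It was 5 with no filter on low counts (9283 of 21785 genes tested passed) and with the replicate block (64.7%). It was also 5 without shLuc replicate 3 (8265 of 16372 genes) and without shWDR5 replicate 3 (8398 of 16322 genes). It was 8 with the GC correction (5 lower), against 63.5% of all genes tested. With the GC correction and the replicate block it was 9 (4 higher, 5 lower), against 65.9%. Members higher in shWDR5 cells numbered 1 with library totals and 1 to 2 when a library was left out (1 without shWDR5 replicate 1). Of all genes tested, 3705 of 16117 were called higher with library totals and 4016 of 16313 without shWDR5 replicate 1. In the main fit 4292 of 16117 were. Members past all limits of the study numbered 1 with library totals, no filter on low counts, the replicate block, and either GC correction, and 1 to 2 when a library was left out (1 without shLuc replicate 1 or 3 or shWDR5 replicate 2 or 3), since PARD6G lay at the fold limit. The share of all genes past these limits was 18.3% in the main fit and was not computed for the alternatives. PRKCI reversed with library totals (-0.020), without shLuc replicate 1 (-0.034) and without shWDR5 replicate 3 (-0.058, the lowest of a range up to 0.14 when a library was left out), and SCRIB with the GC correction (-0.11) with or without the block; the cause was not tested. As shares of raw counts, the differences between groups were -4.24 points for PARD6A, -9.94 for PARD6B, 14.2 for PARD6G, -2.66 for PARD3 and -0.590 for CRB3, since lengths differ, beside -11.6, -5.55, 17.2, -2.10 and -0.106 per length.

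Libraries with the same replicate number correlated in their deviations at 0.372, 0.036 and 0.116, and shLuc replicate 2 correlated best with shWDR5 replicate 3 (0.210), so the numbers were not taken as pairs. Their correlations with GC content were nevertheless alike by number (0.535 and 0.535, -0.252 and -0.259, -0.367 and -0.392 in shLuc and shWDR5). Deviations cancel within a group, so the values of its libraries are not independent of each other, here or in the correlations between libraries. With the replicate block 10430 genes passed (64.7%) in place of 9103, LLGL2 passed (adjusted p = 0.00381), and no called member was lost. Depth limits PARD6A most, with 39 to 116 counts a library.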

Other observations

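The lists next to the apicobasal modules were not described above. Of 16 planar cell polarity genes 11 passed, 6 higher and 5 lower in shWDR5 cells (68.8%, against 56.5% of all genes; median log2 fold change 0.075). VANGL2, a core transmembrane protein of the pathway that binds SCRIB, rose from 2.35 ± 0.0192 to 4.84 ± 0.573 CPM (SD, n = 3 each; 1.04 ± 0.12 on the log2 scale, SE; adjusted p = 1.49e-05). The receptor FZD6 rose (0.52 ± 0.071), and the cytoplasmic transducer DVL2 fell (-0.62 ± 0.072). PRICKLE4 passed narrowly (0.38 ± 0.15; adjusted p = 0.0419), but its groups overlapped and it was lost in 8 of 15 alternative fits.

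Of 12 apical membrane genes 11 were tested and 8 passed, 4 higher and 4 lower (72.7%, against 56.5% of all genes; median 0.060, beside -0.011). The apical mucin MUC1 rose from 8.94 ± 0.624 to 21.7 ± 2.00 CPM (SD, n = 3 each; 1.28 ± 0.089, SE; adjusted p = 3.48e-07). PROM1, prominin of apical protrusions, rose at a low level (0.64 ± 0.13), and RAB35, a GTPase of apical transport, rose as well (0.40 ± 0.059). PODXL, the sialomucin podocalyxin, fell (-0.57 ± 0.066).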
